A study of Mus musculus with 36 samples.

Results

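Transcripts of 10 genes that mark T lymphocytes (Satb1, Trbc2, Lck, Thy1, Cd3e, Cd3g, Cd8b1, Rag1, Tcf7 and Themis) were followed in whole mouse liver. They are 10 of the 53715 gene identifiers in the count table. The genes were chosen by name after earlier results of the same libraries had shown several of them among the largest differences between tangerine and red tomato powder, so their levels in that comparison are a description and not a test. The livers came from 10-week-old male C57BL/6 mice. Each mouse had eaten AIN93G for 6 weeks, starting at 4 weeks old. AIN93G is a purified rodent diet that all groups shared, and it was given either alone (control, 12 libraries) or with 10% by weight of red tomato powder (12 libraries) or tangerine tomato powder (12 libraries). Each library carries its own mouse number and was taken as 1 mouse. Total counts per library lay between 21290169 and 33810573.

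T lymphocytes recognise antigen through a receptor whose variable chains pair with the invariant CD3 chains, and the kinase LCK, held at the tail of CD4 or CD8, starts the signal inward. The cells mature in the thymus, where immature thymocytes cut and join the receptor genes with the RAG recombinase and pass through a stage with both CD4 and CD8. The thymus also holds epithelial cells that guide the selection of thymocytes. A healthy liver holds resident and circulating T cells, which are a small minority beside hepatocytes. In a bulk library fewer T cells and less RNA per T cell cannot be told apart.

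The RefSeq promoter table (GRCm38.p6, the build that the submitters' processing notes name) had entries for 7 of the 10 genes, 14 entries in all, each running from 250 bases before to 50 bases after an annotated start. Those of Lck, Cd3e and Cd3g are shown because Lck is known for a distal promoter and a proximal promoter, the proximal one used mainly in thymocytes, and because the CD3 genes sit close together on chromosome 9. Capitals mark matches on either strand to the letters TGTGGT of RUNX factors, CTTTGA of TCF/LEF factors, AGATAA of the GATA family, GGAAGT of ETS factors and TGGGAA of Ikaros. All are on the minus strand and are written 5′ to 3′ along the gene.
Lck, upstream start, chr4:129573592-129573891: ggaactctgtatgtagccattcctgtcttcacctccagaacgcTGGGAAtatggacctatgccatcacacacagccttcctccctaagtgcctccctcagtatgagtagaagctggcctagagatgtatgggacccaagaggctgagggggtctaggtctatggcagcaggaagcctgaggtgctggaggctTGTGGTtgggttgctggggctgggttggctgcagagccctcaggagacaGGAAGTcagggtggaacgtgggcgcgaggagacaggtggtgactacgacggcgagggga
Lck, downstream start, chr4:129558323-129558622: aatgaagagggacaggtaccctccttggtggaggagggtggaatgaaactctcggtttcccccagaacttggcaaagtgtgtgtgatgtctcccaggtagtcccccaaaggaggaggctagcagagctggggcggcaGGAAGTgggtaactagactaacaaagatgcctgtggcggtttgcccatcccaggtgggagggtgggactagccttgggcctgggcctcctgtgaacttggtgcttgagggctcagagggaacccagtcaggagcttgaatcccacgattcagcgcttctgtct
Cd3e, chr9:45009562-45009861: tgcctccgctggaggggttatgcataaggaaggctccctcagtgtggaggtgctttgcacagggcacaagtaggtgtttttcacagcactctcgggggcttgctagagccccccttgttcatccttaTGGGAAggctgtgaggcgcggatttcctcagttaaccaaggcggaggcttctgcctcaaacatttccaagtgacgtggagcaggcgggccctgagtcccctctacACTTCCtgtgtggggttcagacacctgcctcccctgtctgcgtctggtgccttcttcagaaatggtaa
Cd3g, chr9:44980382-44980681: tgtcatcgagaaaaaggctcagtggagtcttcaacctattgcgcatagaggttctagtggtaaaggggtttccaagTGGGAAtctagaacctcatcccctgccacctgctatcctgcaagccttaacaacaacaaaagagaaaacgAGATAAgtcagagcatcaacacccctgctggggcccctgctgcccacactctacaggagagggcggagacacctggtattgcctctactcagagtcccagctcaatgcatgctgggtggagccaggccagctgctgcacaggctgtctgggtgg
The ETS letters were in 9 of the 14 entries, from 5 of 7 genes, and in 23.8% of all 32851 promoter entries of the table. The Ikaros letters were in 6 of 14 entries (25.6% of all), the RUNX letters in 2 (16.8%), the GATA letters in 1 (11.2%) and the TCF/LEF letters in 0 (16%). The E-box CANNTG, not capitalised, was in 13 of 14 (72.3%). ETS and Ikaros letters can overlap. Entries of 1 gene can share bases, and a match is only a match of letters.

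Across 35 of the 36 livers the T lymphocyte genes were low, and their ranges overlapped between the diets. In the library of red mouse 186 the 9 genes with any count were 12.0 to 87.7 times as high, in counts, as in any other library. Their summed level was 266 CPM (counts scaled to a common library size, TMM factors included) in red 186 and 5.94 CPM in the next library, tangerine 197. That single library held 87.2% of the summed level of the red group and 67.8% of that of all 36 libraries. Without it, the summed level averaged 3.37 ± 0.775 CPM on control (SD, n = 12), 3.54 ± 0.832 CPM in the 11 red libraries left (n = 11) and 3.92 ± 0.983 CPM in the tangerine group (n = 12), and the ranges overlapped.

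**Figure D1:**
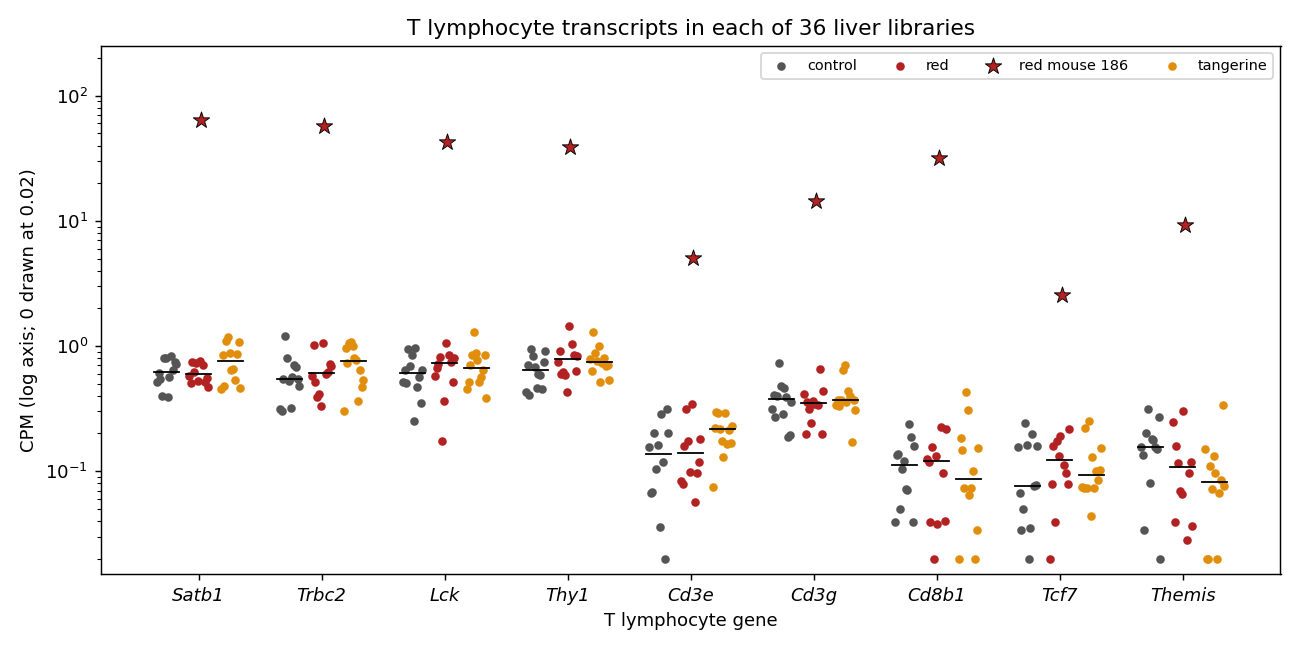
CPM of each T lymphocyte gene (log axis, zeros drawn at 0.02) in every library, by diet; points are libraries, bars are medians of a diet and the star is red mouse 186. The star lies above all other libraries for all 9 genes with counts, at 63.7 CPM for Satb1, whereas the other points of the 3 diets overlap.

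The receptor genes are described first. Trbc2 (ENSMUSG00000076498, chromosome 6, 41546730 to 41548352, plus strand) encodes a constant segment of the receptor beta chain. Its counts ran from 8 to 24 with a median of 15 on control, from 10 to 28 with a median of 18 in the other 11 red libraries, and from 8 to 30 with a median of 20.5 on tangerine. Red 186 had 1894. The 3 diets overlap once that library is set aside, and 0 of the other 11 red libraries exceeded the highest control in CPM. Trbc2 is near-identical to Trbc1 in its coding part, and how the authors' counting divided shared reads was not given in the sources used here, so the split between the pair is uncertain. Trbc1 itself had 790 counts in red 186 and at most 12 elsewhere.

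Cd3g (chromosome 9, 44969572 to 44980431) and Cd3e (chromosome 9, 44998740 to 45009627) encode CD3 gamma and epsilon, which carry the receptor's signal. Cd3g had 481 counts in red 186, against 5 to 21 on control, 5 to 20 in the other red libraries and 4 to 18 on tangerine, with medians of 8.5, 9 and 10.5. Cd3e had 167 counts there, against 0 to 8 on control, 2 to 9 in the other red libraries and 2 to 8 on tangerine. No diet was set apart from another in either gene outside red 186. The span of Cd3e overlaps an antisense gene model in GENCODE release M21, and the strand setting of the counting was not given in the sources used here.

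Cd8b1 (chromosome 6, 71322788 to 71337494) encodes the beta chain of the CD8 co-receptor of cytotoxic T cells. Its count was 1052 in red 186 and 12 in the next library, tangerine 197. Control ran from 1 to 6, the other red libraries from 0 to 8 and tangerine from 0 to 12, with medians of 3, 3 and 2.5. The excess of red 186 over the next library, 87.7 times, was the highest of the 9 genes. Thy1 (chromosome 9, 44043384 to 44048579) encodes a surface protein that mouse T cells and thymocytes carry. It had 1288 counts in red 186, against 11 to 24 on control, 13 to 38 in the other red libraries and 14 to 35 on tangerine. Red 177 held the 38.

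Lck (ENSMUSG00000000409, chromosome 4, 129548344 to 129573641, minus strand), the kinase whose promoter entries are printed above, had 1423 counts in red 186. It ran from 7 to 27 on control (median 15.5), from 5 to 30 in the other red libraries (median 18) and from 10 to 36 on tangerine (median 18). The diets again overlap without red 186. The table gives 1 count per gene, so use of the upstream or the downstream start cannot be read from it. Themis (chromosome 10, 28668360 to 28883818), a signalling protein needed for thymocyte selection, had 306 counts in red 186 and at most 10 elsewhere.

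Satb1 (ENSMUSG00000023927, chromosome 17, 51736187 to 51833290, minus strand) encodes a chromatin organiser abundant in thymocytes. Its count was 2109 in red 186. Control ran from 8 to 23 with a median of 17.5, the other red libraries from 13 to 25 with a median of 16, and tangerine from 12 to 33 with a median of 20. In CPM, 6 of 12 tangerine libraries exceeded the highest control and 0 of the other 11 red libraries did, while the ranges still overlapped. Tcf7 (chromosome 11, 52252371 to 52283014), a transcription factor of early T cell development, had 84 counts in red 186 and at most 7 elsewhere. The span of Tcf7 also overlaps an antisense gene model.

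Rag1 (chromosome 2, 101638282 to 101649501), a subunit of the recombinase, was listed at 0 in all 36 libraries, red 186 included. Rag2 and Ptcra, further genes of immature thymocytes, were also listed at 0 in all 36. So were Per3 and Ciart, clock genes that liver is known to transcribe, and 4397 of the 21890 protein-coding identifiers in the table. A listing of 0 here may be a gene that was not counted, so no level is read from Rag1. Were it counted, 0 reads would allow up to 3 counts, or 0.0993 CPM on the raw total of red 186, for counting error only.

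Divided by exon length (CPM per kilobase of all annotated exons), Trbc2 was the most abundant of the genes both in red 186 (82.7) and at the median of the other 35 libraries (0.856). In red 186 Cd8b1 came next at 21.4, followed by Lck at 14.7, Thy1 at 13.0, Cd3g at 4.45, Satb1 at 3.35, Cd3e at 1.24, Tcf7 at 0.967 and Themis at 0.791. At the median of the other libraries Thy1 (0.237) and Lck (0.220) followed Trbc2, and Cd8b1 stood at 0.0704. These lengths include every annotated exon, so a gene with long rarely used exons, such as Satb1, is set low.

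The diets were then compared by edgeR's quasi-likelihood test over all genes that passed a filter on low counts, with p-values adjusted by the Benjamini-Hochberg method and a threshold of 0.05. Only 5 of the 10 genes passed the filter (Satb1, Trbc2, Lck, Thy1 and Cd3g). Cd3e, Cd8b1, Tcf7, Themis and Rag1 did not. In tangerine against red, the comparison that chose the genes, 4 of the 5 tested were below the threshold and lower on tangerine, beside 1.71% of the 14068 tested genes called in either direction, with 0.981% called lower. With no low-count filter, 9 of the 10 genes were tested and 1 passed, Cd8b1 (log2 fold change -4.36), beside 0.498% of 27335 genes. The log2 fold changes were -2.95 for Satb1 (SE 0.755), -2.89 for Trbc2 (SE 0.748), -2.59 for Lck (SE 0.689), -2.37 for Thy1 (SE 0.630) and -1.97 for Cd3g (SE 0.605). Nothing is read from those calls.

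Red against control shares the red libraries with that comparison, and 0 of 5 genes passed in it, beside 0.149% of all tested genes. All 5 had an unadjusted p under 0.05, as did 13.3% of all tested genes (15.1% in tangerine against red). Their log2 fold changes ran from 2.06 for Cd3g to 3.23 for Satb1 and Trbc2, with edgeR adjusted p from 0.0591 to 0.122. Tangerine against control, which does not use red 186 except through the shared dispersion estimate, had 0 of 5 genes past the threshold (background 0.0142%) and 0 at an unadjusted p under 0.05 (background 5.47%). The log2 fold changes there lay between 0.09 and 0.34, with SEs from 0.693 to 0.858. Without red 186 the SEs of that comparison were 0.162 to 0.223. With red 186 in the fit, differences of this size could hardly pass, so nothing is read from these counts of 0. Over all tested genes the median log2 fold change lay between -0.0118 and -0.00455 in the 3 comparisons.

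Leaving out red 186 changed the size and, for Satb1, Trbc2, Lck and Cd3g, the sign of the difference between the tomato powders. Tangerine against red then gave 0.32 for Satb1 (SE 0.165), 0.21 for Trbc2 (SE 0.225), 0.08 for Lck (SE 0.220), -0.03 for Thy1 (SE 0.175) and 0.18 for Cd3g (SE 0.215). The edgeR adjusted p ranged from 0.364 to 0.958, and 0 of 5 passed beside 1.46% of all 14099 tested genes. Red against control had 0 of 5 (background 0.383%), with log2 fold changes from -0.09 to 0.29, and tangerine against control 0 of 5 (background 0.0142%), from 0.09 to 0.34. At an unadjusted p under 0.05, edgeR gave 0 of the 5 genes in each comparison without red 186. The background was 13.4% for red and 5.79% for tangerine, each against control, and 14.9% between the powders. DESeq2 also gave 0 in each (backgrounds 14%, 6.04% and 15.4%). Limma-voom with sample weights gave 0, 1 and 0 (backgrounds 27.4%, 8.55% and 22.2%). After adjustment, tangerine against red had 0 genes by DESeq2 (background 2.72%), by limma-voom (5.65%) and by edgeR with no low-count filter (0.372%). A p above the threshold does not show equal levels: at these low counts the SE of a log2 fold change was between 0.162 and 0.231.

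**Figure D2:**
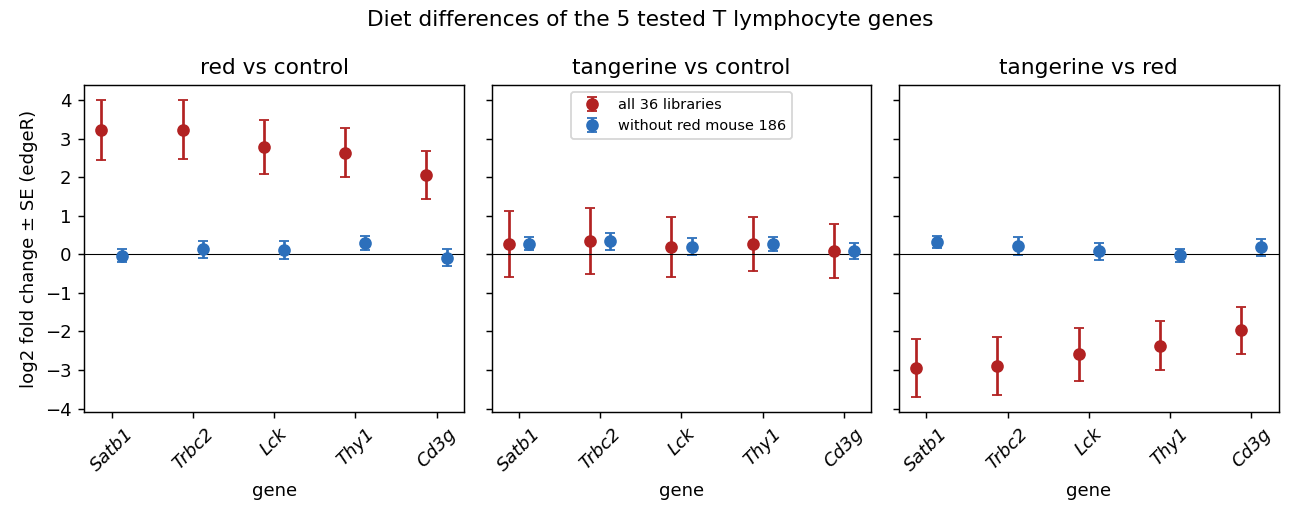
Log2 fold change from edgeR for the 5 tested genes (x axis) in each comparison of diets, with all 36 libraries and without red mouse 186. Error bars are SEs derived from the F statistic of the test. The differences of red from control (2.06 to 3.23) and of tangerine from red (-2.95 to -1.97) move to between -0.09 and 0.32 without that library, and those of tangerine from control barely move.

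Each of the other 35 libraries was left out in turn in the same way. The log2 fold change of tangerine against red then stayed between -3.07 and -2.90 for Satb1, between -3.01 and -2.82 for Trbc2, between -2.71 and -2.54 for Lck and between -2.48 and -2.33 for Thy1. No other single library moved these values as red 186 did. The number of genes past the threshold was less stable, since the 4 adjusted p-values lay between 0.0337 and 0.0413. It was 0 without tangerine 198, 215, 216, 217 or 242, where 172, 115, 89, 105 and 146 genes were called over the whole table, against 241 with all libraries. It was 1 without tangerine 128 (227 genes called in all) and 2 without tangerine 160, 195 or 225 (265, 258 and 244). A clock score made from circadian genes, in which red 186 was the 4th lowest library at -4.51, was also tried as a covariate: the log2 fold change of Satb1 then was -1.02 and that of Trbc2 -1.06, and 0 of all 14068 tested genes passed (background 0%). In red against control the number rose from 0 to 3 without control 189 or red 177, and to 4 without red 170 or red 204. The genes called over the whole table rose with it, from 21 to 127, 60, 85 and 70 in that order. Tangerine against red also had 0 of the T lymphocyte genes past the threshold under 5 further settings. The background was 2.78% by DESeq2, 5.3% by limma-voom with sample weights, 2.42% with only the groups compared, 0.227% with the mouse number as a covariate and 0.669% by edgeR without red 186, tangerine 216 and control 245. In red against control, 3 of 4 passed when a mean log2 CPM of at least 1 was required, beside 0.534% of all tested genes. The 4 genes met that filter only through red 186. Without that library the mean log2 CPM of Satb1, Trbc2, Lck and Thy1 lay between -0.486 and -0.309. Nothing is read from these 3 calls.

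**Figure D3:**
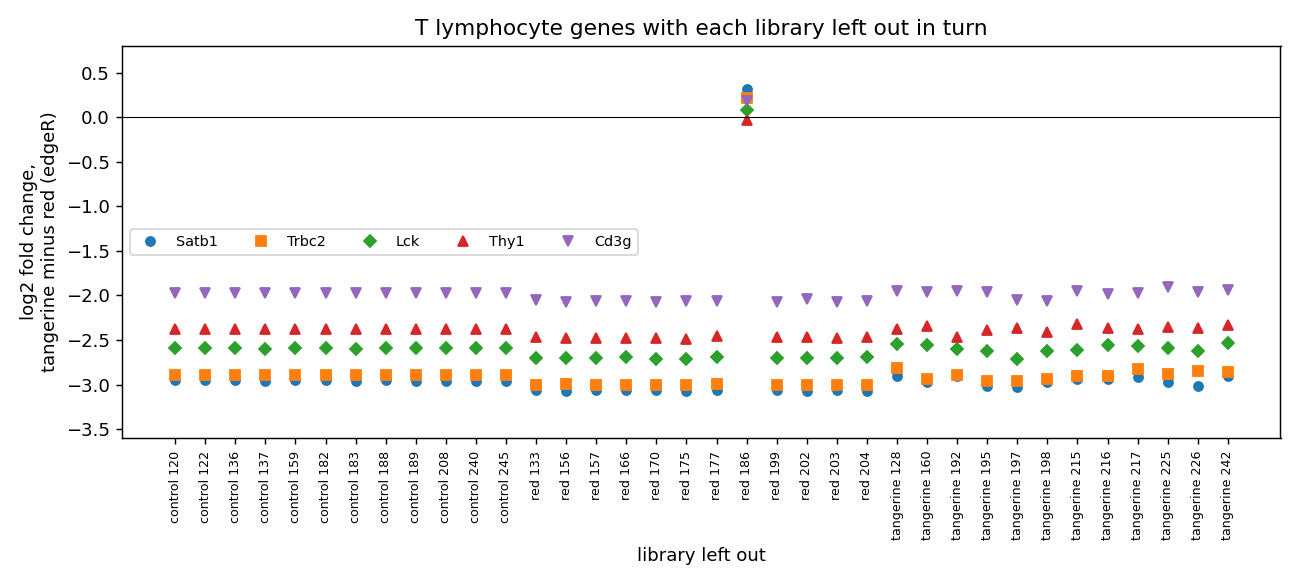
Log2 fold change of tangerine against red (edgeR, y axis) for the 5 tested genes when each library named on the x axis is left out. The values lie at or below -1.90 for every library left out except red mouse 186, where they lie between -0.03 and 0.32.

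The wider T cell machinery was read from lists of genes outside the 10. Of 52 genes of the receptor and co-receptors, of T cell signalling, of T lineage transcription factors and of immature thymocytes, 47 had any count. Red 186 was the highest library for 40 of them and at least 10 times the next library for 21. Cd8a, the other CD8 chain, had 1475 counts in red 186 and at most 11 elsewhere. Trac, the alpha chain constant segment, had 393 against at most 18. Lat, the adaptor that LCK and ZAP70 signals reach, had 538 against at most 17, and Bcl11b, a factor that holds cells in the T lineage, had 621 against at most 10. Lat and Bcl11b were picked once their levels had been seen. Zap70 did not stand out: its 266 counts in red 186 lay above the median of 163 elsewhere and below the 318 of tangerine 226. The lineage factors Zbtb7b (65.7 CPM) and Id3 (27.1 CPM) lay below the medians of the other libraries (71.8 and 38.5 CPM).

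Of the immature thymocyte list, 7 of 13 genes were highest in red 186 and 3 were listed at 0 in every library. Arpp21, an RNA-binding protein of double-positive thymocytes, had 392 counts in red 186 and at most 2 elsewhere. Endou, an endoribonuclease, had 555 against at most 18. Both Arpp21 and Endou were picked once their levels had been seen. Dntt, the enzyme that adds bases at receptor joins, had 1711 against 63 to 268 elsewhere, so it had counts in all livers. Of the list of mature and liver-resident T cells, 7 of 16 genes were highest in red 186 and 1 was at least 10 times the next library. Klf2 (109 counts) and Il2rb (68) lay within the range of the other libraries.

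In the edgeR fit over all 36 libraries, 25 of the 52 genes were tested. None of the 3 receptor and co-receptor genes, 9 signalling genes or 8 lineage factors tested passed the threshold in any of the 3 comparisons, with or without red 186. The share of all tested genes called was 0.149% for red and 0.0142% for tangerine, each against control, and 1.71% between the powders, and 0.383%, 0.0142% and 1.46% without red 186, so a count of 0 among so few genes is near the background. Their median log2 fold changes of tangerine against red were -0.91, -0.61 and -0.11 with it, and 0.06, 0.04 and 0.05 without it. At most 1 of the 5 tested immature thymocyte genes passed. This was Aqp11, an aquaporin that liver also expresses, higher on tangerine than on red by 0.40 on the log2 scale with all libraries (SE 0.0857, adjusted p = 0.0152) and by 0.41 without red 186 (SE 0.0885, adjusted p = 0.0155). Red against control was -0.36 with all libraries (edgeR adjusted p = 0.0591) and -0.37 without red 186 (adjusted p = 0.0497), so the size hardly moved and the call did. Aqp11 averaged 47.5 ± 8.77 CPM on control (SD, n = 12), 37.1 ± 4.34 CPM in the red group (n = 12) and 48.9 ± 7.06 CPM in the tangerine group (n = 12).

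The genes whose log2 CPM followed the mean of the 5 tested T lymphocyte genes most closely over the 36 libraries included Sept1, Sash3, Atp2a3, Trac, Ikzf1, Lrmp, Ikzf3, Fmnl1, Rasal3, Grap2, Coro1a, Ldhb, Prkcb and Slc38a1. Each of these had its highest count in red 186: 393 for Trac, against a median of 8 elsewhere, and 1043 for the actin regulator Coro1a, against a median of 86. Pearson's r over all 36 libraries lay between 0.852 and 0.918, with red 186 far from the other points. Over the other 35 libraries it ran from -0.0720 for Ldhb to 0.617 for Sept1. All values share the library, its depth and low counts.

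Markers of other cells and tissues were summed in each library to show what moved with the T lymphocyte genes. Thymic epithelium markers were highest in red 186 for 8 of 9 genes. Prss16, a protease of thymic cortical epithelium, had 609 counts there and at most 2 elsewhere. Psmb11, the thymus-specific proteasome subunit, had 74, Foxn1, the factor that thymic epithelium needs, 17, and the basal keratin Krt5 255, and all of these were at 0 in the other 35 libraries. Aire, which lets thymic medullary cells show antigens of other tissues, had 31 against at most 1, and Tbata 404 against at most 1. Psmb11, Foxn1, Krt5, Aire and Tbata were picked once their levels had been seen. Ccl25, Krt8 and Ly75 had counts in every liver, so the sum of the whole list ran from 104 to 194 CPM on control, 107 to 156 in the other red libraries and 110 to 162 on tangerine, against 204 CPM in red 186.

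Skeletal muscle and fat markers stood out in the same library. The muscle list summed to 27.1 CPM in red 186 and to at most 1.10 CPM in any other library, with Myh4 at 398 counts against at most 2 and Ckm at 166 against 0. Acta1 was listed at 0 in all 36. All 5 adipose markers were highest in red 186, with a sum of 6.74 CPM against at most 0.406 CPM elsewhere. Lep, the adipocyte hormone leptin, had 42 counts there and 0 in the others. Their part in the diet differences was not tested.

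Lists of other blood cells were nearer to the remaining libraries, with 0 genes at 10 times the next library in the B cell, dendritic cell, NK cell and Kupffer cell lists. Of the 12 B cell markers, 7 had their highest raw count in red 186. Cd79b, a signalling chain of the B cell receptor, was among them, with 61 counts against at most 32. Ighd, Ebf1 and Fcmr were also among them but not highest there in CPM. Their CPM in red 186 was 1.81, 0.483 and 0.483, against up to 1.95, 0.511 and 0.498 elsewhere. The B cell sum, of which the immunoglobulin gene Ighm made up 1605 of 1932 counts, was 58.4 CPM in red 186, inside the range of the other red libraries (22.1 to 69.7) and of tangerine (12.2 to 102) and above control (19.2 to 53.5). Jchain, the joining chain of secreted antibodies, had 81 counts against at most 21. It belongs to the plasma cell list, of whose 6 genes 2 had their highest raw count in red 186. That list summed to 374 CPM in red 186, against 327 to 425 on control. Dendritic cell markers summed to 10.1 CPM, the highest of the 36 libraries, against 9.25 CPM in the next. In raw counts 3 of the 6 were highest in red 186. Zbtb46, among these, had 6.31 CPM there, against up to 7.05 CPM elsewhere. NK cell markers summed to 0.725 CPM, against 0.238 to 1.004 on control. Lymph node and spleen stroma markers summed to 0.846 CPM, against 0.05004 to 1.08 on control, with Ccl21a and Ccl19 listed at 0 everywhere. Kupffer cell markers summed to 224 CPM, against 123 to 357 on control. Cell division genes were highest in red 186 for 9 of 10 genes, with a sum of 112 CPM against at most 43.7 CPM and Mki67 at 730 counts against at most 137. Hepatocyte markers, which define the labelled tissue, summed to 96496.6 CPM in red 186, below the ranges of control (101993 to 127156) and of the other red libraries (99030.1 to 127377) and within that of tangerine (90646.6 to 118189).

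**Figure D4:**
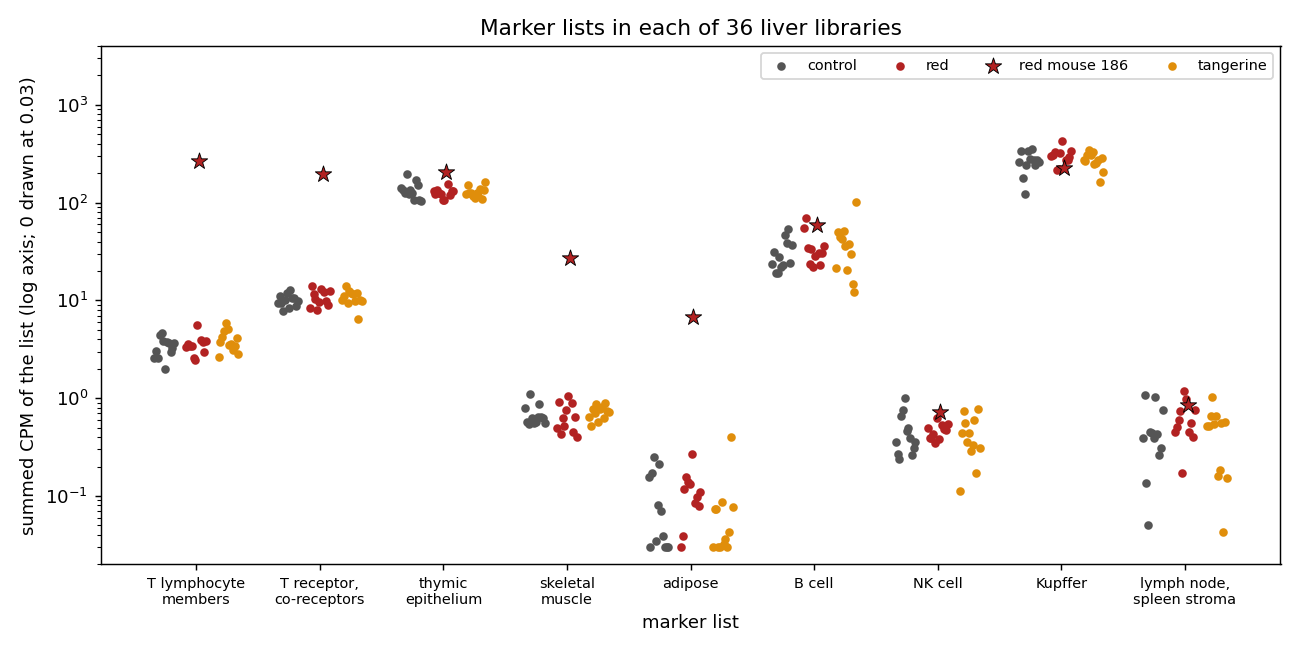
Summed CPM of each marker list (log axis, zeros drawn at 0.03) in every library, by diet, with red mouse 186 as a star. The star lies far from the other libraries for T lymphocyte, T receptor, muscle (27.1 CPM) and adipose lists (6.74 CPM), and among them for B cell, NK cell, Kupffer and lymph node lists.

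Over the whole table, 126 genes had at least 20 counts in red 186 and at least 10 times the CPM of every other library. The 9 T lymphocyte genes with counts were all among them. Together the 126 genes held 0.0867% of that library's counts. The same rule found 11 genes in tangerine 216, 5 in control 245, 2 in tangerine 192 and 0 in the median library. Satb1 and Trbc2 had the largest counts of the 126. Ucp1, the uncoupling protein of brown fat, a gene picked once its level had been seen, was also among them with 299 counts against at most 1 elsewhere.

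Of the 20 genes with the largest called differences between tangerine and red, 4 were highest in red 186, namely Satb1, Trbc2, Lck and Thy1, which ranked 1, 2, 3 and 5. Each of the others was highest in another library, among them the clock gene Npas2, which ranked 4 with a log2 fold change of -2.51 and stayed at -2.52 (edgeR adjusted p = 0.0260) without red 186. Without red 186 the number of genes called between the powders went from 241 to 206, with 186 shared. In red against control it went from 21 to 54, and all 21 remained. Of the 241 genes, 4 had at least 3 times the CPM of every other library in red 186, and these were the same 4 T lymphocyte genes. None of these 4 was called without it.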

How the data were processed

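RNA from 36 livers, 12 on each of 3 diets, was sequenced. The authors deposited raw counts per gene, whole numbers that are not normalized. FastQC, Trimmomatic, edgeR and GRCm38.p6 are named in the submitters' processing notes; the aligner, counter and strand setting are not given in the sources used here. GENCODE release M21 (GRCm38) gave a symbol to 53620 of 53715 identifiers. The 10 genes and the marker lists were chosen with earlier results of these data known.

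Counts were fitted with edgeR 4.0.16 (R 4.3.3; TMM, filterByExpr, robust quasi-likelihood) on all 36 libraries without covariates. Benjamini-Hochberg adjustment ran over all tested genes of a comparison, with a threshold of 0.05. The quasi-likelihood test gives no SE. The SE printed for an edgeR log2 fold change is its absolute value divided by the square root of the F statistic. CPM is scaled by TMM. Alternatives were DESeq2 1.42.0, limma 3.58.1 (voom), other filters, scaling and covariates, and leaving out each library. Fits were tested on simulated data. Total counts of 21290169 to 33810573 put the limit of a 0 (3 counts) at 0.0887 to 0.141 CPM on raw totals.

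Beside the 10 genes, the rule for naming genes gave at most 4 genes a list by highest mean CPM, and called T cell list genes. It also gave the 15 genes most correlated with the mean log2 CPM of the tested T lymphocyte genes. The 20 largest called differences between tangerine and red were named too. Any other gene was chosen after its values were seen. Among these were Lat, Bcl11b, Arpp21, Endou, Foxn1, Psmb11, Aire, Krt5, Tbata, Ebf1 and Fcmr. A gene that the rule names is not reported here. The labels do not say that each mouse number is a separate animal; if not, p-values measure only the spread between libraries.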

Additional observations from a re-analysis of the deposited data

Results flagged for a closer look

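Between the tomato powders, 4 of the 5 tested T lymphocyte genes differed past the threshold of edgeR's quasi-likelihood test, in the comparison that chose them. Over all 14068 tested genes 1.71% were called, with 0.981% called lower on tangerine. Tangerine minus red was -2.95 for Satb1, -2.89 for Trbc2, -2.59 for Lck and -2.37 for Thy1 on the log2 scale, and none of the 4 was called without red 186.

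Marker lists of other tissues had summed counts above those of every control library. In red 186 the thymic epithelium list summed to 6743 counts (highest control 4381), the skeletal muscle list to 896 (highest control 22) and the adipose list to 223 (highest control 6). These are raw counts. In CPM the thymic epithelium list summed to 204 in red 186 and to 194 in control 137. Krt8, which had counts in every liver, made up 4626 of the 6743 counts. In tangerine 216 the pancreas list summed to 309 (highest control 6), and in red 186 it summed to 10.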

How the results depend on the processing

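In tangerine against red the number of T lymphocyte genes past the threshold, 4 of 5 in the edgeR fit to all libraries, was 1 of 9 without a low-count filter (Cd8b1; 0.498% of all tested genes called). It was 0 with DESeq2 (2.78% of all), with limma-voom with sample weights (5.3%), with only the groups compared (4 tested; 2.42%), with the mouse number (0.227%) or the clock score (0%) added as a term, and under 4 settings chosen after seeing the data: DESeq2, limma-voom and no filter, each without red 186, and edgeR without red 186, tangerine 216 and control 245. At a mean log2 CPM of at least 1, 4 of 4 in tangerine against red were past it, and the share of all tested genes is not given here. With DESeq2 size factors, or with robust estimation off, no call or sign of the 5 tested genes changed in any comparison. In red against control the number past the threshold was 0, and 3 of 4 at a mean log2 CPM of at least 1 (0.534% of all tested genes called). The 4 genes met that filter only through red 186. Leaving out 1 library gave 0 to 4 in red against control, 0 to 4 in tangerine against red and 0 to 0 in tangerine against control.

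Signs turned as follows, in log2 fold changes in the order DESeq2, limma-voom, no filter and 3 libraries left out, all without red 186. In tangerine against red Satb1 was 0.32, 0.27, 0.32 and 0.33, Trbc2 0.22, 0.21, 0.22 and 0.20, and Lck 0.087, 0.11, 0.088 and 0.12. Cd3g was 0.18, 0.23, 0.18 and 0.16, and Thy1 was 0.064 by limma-voom. In red against control Satb1 was -0.041, -0.066, -0.034 and -0.024, and Cd3g -0.087, -0.065, -0.081 and -0.093. Without red 186, DESeq2 gave no adjusted p for Cd3g in any comparison, and in tangerine against control only Thy1 had one. With all libraries it gave none for any tested T lymphocyte gene in either comparison with control, and none for Cd3g between the powders. With all libraries, DESeq2 gave 0.32 for Satb1, 0.22 for Trbc2, 0.087 for Lck and 0.18 for Cd3g in tangerine against red. In red against control it gave -0.036 for Satb1 and -0.084 for Cd3g. The default of DESeq2 replaces outlying counts in groups of this size. In tangerine against red, limma-voom with sample weights on all libraries gave 0.058 for Satb1 and 0.060 for Cd3g. The mouse number as covariate gave -0.0077 for Cd3g in tangerine against control. The cause of these turns was not tested.

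Leaving out 1 library, tangerine against red ran from -3.07 to 0.32 for Satb1, -3.01 to 0.21 for Trbc2, -2.71 to 0.082 for Lck and -2.08 to 0.18 for Cd3g. Red against control ran from -0.042 to 3.35 for Satb1 and -0.088 to 2.19 for Cd3g, and tangerine against control from -0.0018 to 0.23 for Cd3g, below 0 without tangerine 198. Without a filter and without red 186, the SE of a log2 fold change was 0.328 to 0.468 for the 4 low-count genes Cd3e, Cd8b1, Tcf7 and Themis. No paired analysis was possible because no mouse number occurs in more than 1 diet.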

Other observations

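Markers of another organ also stood apart in 1 control library. In control 245 the lung list summed to 722 counts, or 28.9 CPM, and no library on either tomato powder exceeded 1.36 CPM. The T lymphocyte genes of that library did not stand out.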
